A study of Homo sapiens with 4 samples.

Results

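The zinc, copper and iron handling genes are a set of 44 genes that move these metals across membranes, carry or store them inside the cell, or sense them. They were chosen by name, as the zinc sensor MTF1, the zinc transporter families SLC30A and SLC39A, the copper transporters and copper chaperones, and the main genes of iron uptake, storage, export and control. All 44 had at least 1 probe that names no other gene, out of 18365 genes with such a probe, and together they had 60 probes of 31741. The study asked which genes respond to GSK343, a small molecule inhibitor of the histone methyltransferase EZH2, in cancer cells. HepG2, a human liver cancer line, was measured with 10 μM GSK343 for 6 h and as a control, and A549, a human lung cancer line, was measured with 10 μM GSK343 for 6 h and as a control. Each of these 4 conditions had 1 array of Cy5-labelled total RNA, and all cells were kept in DMEM with serum. The labels do not say what the control cells received, and nothing says that cultures were replicated.

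Zinc enters the cytosol through SLC39A proteins (ZIP) and leaves it, to the outside or into vesicles, through SLC30A proteins (ZnT). When cytosolic zinc is high, MTF1 binds metal response elements and switches on SLC30A1 and the metallothionein genes. Copper enters through SLC31A1, is handed on by chaperones, and is exported by the ATPases ATP7A and ATP7B, of which ATP7B is the main one in liver. Iron arrives bound to transferrin, is stored in ferritin and leaves through ferroportin (SLC40A1), and the liver hormone hepcidin (HAMP) removes ferroportin from the cell surface.

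The deposited values are linear Cy5 intensity, with medians of 450 and 476 on the HepG2 arrays (GSK343 and control) and of 499 and 460 on the A549 arrays (GSK343 and control). Of the 60 member probes, 38 lay at or above the array's median on all 4 arrays and 12 lay under it on all 4, and 6 genes had no probe at or above the median on any array. The files hold no flag for detection, so a low value is called dim here and no level is read from it. Intensity is compared only for the same probe across arrays. Differences are in log2 units, where 1 log2 unit is a doubling. With 1 array per condition, GSK343 against control within a line has no test, and the yardstick is how far different probes for 1 gene lie apart (the probe spread, an SD), which was 0.40 log2 units in HepG2 (4600 pairs) and 0.40 in A549 (4610 pairs). The lines were compared by limma over all 4 arrays with treatment in the model. That comparison has 2 arrays per line and 1 residual degree of freedom, which measures how far the lines disagree over treatment. To this limma adds a variance borrowed from all probes, worth 5.89 degrees of freedom. Each SE and p-value thus rests more on the other probes than on the probe's own arrays. Neither measures a spread between replicate cultures, and each line stands for itself alone. The line labels fit their markers, since all 11 probes of 8 liver genes were higher and all 7 probes of 6 genes of the lung line were lower in HepG2 than in A549 cells.

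The largest differences within the set lay between the lines. By limma with Benjamini-Hochberg adjustment over 31607 probes, 17 of the 60 member probes were higher in HepG2 than in A549 cells (28.3%), where 15.2% of all probes were, and 13 were lower (21.7%), where 17.4% of all probes were. By gene, 16 of the 44 members had a probe that was higher in HepG2 cells, 11 had one that was lower and 17 had none. No member had probes called in both directions. Genes of iron uptake, export and storage were called higher more often than lower (5 of 8 against 1 of 8), while the zinc importers went both ways (5 of 14 higher, 4 of 14 lower). A gene counts here if any of its probes was called, while the shares of all probes above are per probe. The share of all genes counted in this way was not taken, so no excess is read from the gene counts. These counts describe the groups and were not tested against each other. Where a line's values lie under the array's median, as for SLC39A5, SLC30A10, HAMP, ATP7B and CP in A549 and for HFE and the brighter SLC39A8 probe in HepG2, the share of background in them is unknown, so the order of the lines is measured and the size of the difference is only rough. Its SE covers how far the arrays disagree, with variance borrowed from the other probes, and not this background.

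**Figure D1:**
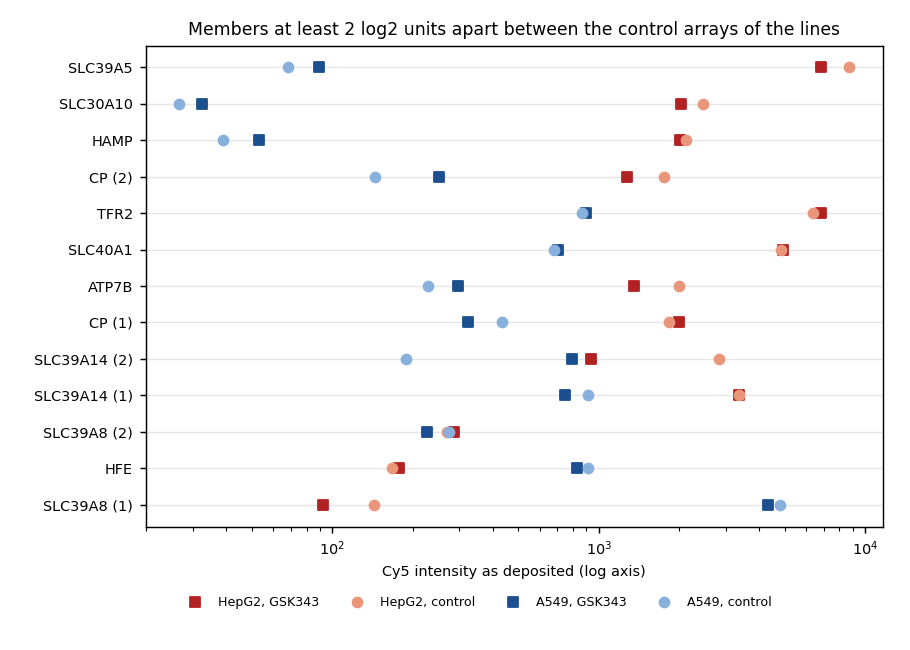
Cy5 intensity as deposited (log axis) of the probes of members whose control arrays differ by at least 2 log2 units between the lines, with squares for GSK343 and circles for control, HepG2 in red and A549 in blue. SLC39A5, SLC30A10 and HAMP lie between 2013 and 8731 on the HepG2 arrays and between 26.6 and 89.0 on the A549 arrays, and the brighter SLC39A8 probe shows the opposite order.

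Among the zinc exporters, SLC30A10, a transporter of this family that is known to export manganese, had an intensity of 2045 with GSK343 and 2468 in control HepG2 cells, against 32.3 with GSK343 and 26.6 in control A549 cells. Its A549 values were among the dimmest 10% of all probes, and the fitted difference between the lines was 6.26 ± 0.22 log2 units (SE, adjusted p = 2.09e-06). SLC30A1, the zinc exporter of the cell surface and a known MTF1 target, read 5953 with GSK343 and 5768 in control HepG2 cells, against 2683 with GSK343 and 3149 in control A549 cells. Both HepG2 arrays were above both A549 arrays, by 1.01 ± 0.22 log2 units (adjusted p = 0.0118). SLC30A2, which loads zinc into vesicles, was under the median on every array, and its line difference was 1.65 ± 0.27 log2 units (adjusted p = 0.00317), an estimate that includes the difference between its HepG2 arrays described below.

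SLC30A5, a transporter that brings zinc into the secretory pathway, was lower in HepG2 cells by 2 of its 3 probes. Its brightest probe read 3472 with GSK343 and 4399 in control HepG2 cells, against 6129 with GSK343 and 4380 in control A549 cells, and the control arrays were thus nearly equal (adjusted p = 0.296). The next probe was lower by 1.10 ± 0.23 log2 units (adjusted p = 0.00955) and the dim one by 1.54 ± 0.25 (adjusted p = 0.00293). SLC30A4, another vesicular zinc exporter, was lower by 1.05 ± 0.32 log2 units (adjusted p = 0.0457), but its intensity was between 14.6 and 43.6 on the 4 arrays, far under the median. No probe of SLC30A3, SLC30A6, SLC30A7, SLC30A8 or SLC30A9 passed the test. The zinc sensor MTF1 was level across the arrays. Its brighter probe read 717 with GSK343 and 744 in control HepG2 cells, against 753 with GSK343 and 716 in control A549 cells, and limma placed the line difference at -0.01 log2 units, with a 95% interval of -0.48 to 0.46.

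Among the zinc importers, SLC39A5, a member of the ZIP family found at the surface of epithelial cells, stood furthest apart. It had an intensity of 6820 with GSK343 and 8731 in control HepG2 cells, against 89.0 with GSK343 and 68.3 in control A549 cells. The groups did not overlap, and the fitted difference was 6.63 ± 0.24 log2 units (adjusted p = 2.54e-06), on dim A549 values. SLC39A8, which carries zinc and manganese into cells, had the opposite order by its brighter probe, with 92.0 with GSK343 and 143 in control HepG2 cells, against 4314 with GSK343 and 4813 in control A549 cells. That probe was lower in HepG2 cells by 5.31 ± 0.22 log2 units (adjusted p = 3.80e-06). The other SLC39A8 probe was dim on all 4 arrays, between 227 and 286, and did not pass the test (0.15 log2 units, adjusted p = 0.621), so the probes of this gene disagree by 5.04 log2 units in the control arrays.

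SLC39A14, which takes up zinc, manganese and iron not bound to transferrin, is known as a liver importer. By its brighter probe it read 3355 with GSK343 and 3366 in control HepG2 cells, against 749 with GSK343 and 912 in control A549 cells, a difference of 2.02 ± 0.21 log2 units (adjusted p = 3.93e-04). Its other probe gave 2.07 ± 0.72 log2 units and missed the threshold (adjusted p = 0.070), since it was 3.89 log2 units higher in the control arrays and 0.24 higher in the GSK343 arrays. SLC39A10, a cell surface importer, was lower in HepG2 cells, with 2043 with GSK343 and 2437 in control HepG2 cells, against 7736 with GSK343 and 9465 in control A549 cells. The difference was -1.94 ± 0.21 log2 units (adjusted p = 4.76e-04).

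SLC39A1, a widely expressed importer, read 6029 with GSK343 and 6955 in control HepG2 cells, against 26155 with GSK343 and 19572 in control A549 cells, and was lower by 1.80 ± 0.24 log2 units (adjusted p = 0.00128). SLC39A11 was 2.01-fold lower (SE 0.23 log2 units, adjusted p = 0.0139). Higher in HepG2 cells were SLC39A4, the importer of dietary zinc in the intestine, by 1.25 ± 0.25 log2 units (adjusted p = 0.00873), and SLC39A7, which releases zinc from the endoplasmic reticulum, by 0.98 ± 0.24 (adjusted p = 0.0193). SLC39A3 was higher by its brighter probe, by 0.91 ± 0.21 log2 units (adjusted p = 0.0160). The other SLC39A3 probe lay under the median on every array and did not pass the test (-0.09 log2 units, adjusted p = 0.796). With 1 called probe enough, 5 importers were thus called in one direction and 4 in the other. The remaining importers SLC39A2, SLC39A6, SLC39A9, SLC39A12 and SLC39A13 had no probe past the threshold.

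The copper exporters split between the lines. ATP7B, the ATPase that loads copper onto ceruloplasmin and moves copper to the bile in liver, read 1363 with GSK343 and 2005 in control HepG2 cells, against 296 with GSK343 and 230 in control A549 cells. It was higher in HepG2 cells by 2.66 ± 0.26 log2 units (adjusted p = 2.77e-04). ATP7A, its counterpart in most other tissues, was lower by both of its probes, with the brighter one at 117 with GSK343 and 139 in control HepG2 cells, against 385 with GSK343 and 344 in control A549 cells. These values lie under the median of every array, and the differences were -1.51 ± 0.20 and -1.25 ± 0.19 log2 units (adjusted p = 0.00135 and 0.00243). The copper importer SLC31A1 was called higher in HepG2 cells by 1 of its 2 probes. Its brighter probe read 7098 with GSK343 and 6867 in control HepG2 cells, against 4638 with GSK343 and 4165 in control A549 cells, and missed the threshold (0.67 ± 0.21 log2 units, adjusted p = 0.052). The second probe passed it (0.76 ± 0.23 log2 units, adjusted p = 0.0410). COX17, which hands copper to cytochrome c oxidase in mitochondria, read 15639 with GSK343 and 12550 in control HepG2 cells, against 29111 with GSK343 and 36098 in control A549 cells, and was lower by 1.21 ± 0.24 log2 units (adjusted p = 0.00770). ATOX1, the chaperone for the copper ATPases, CCS, the chaperone for superoxide dismutase, and SLC31A2 did not pass the test.

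**Figure D2:**
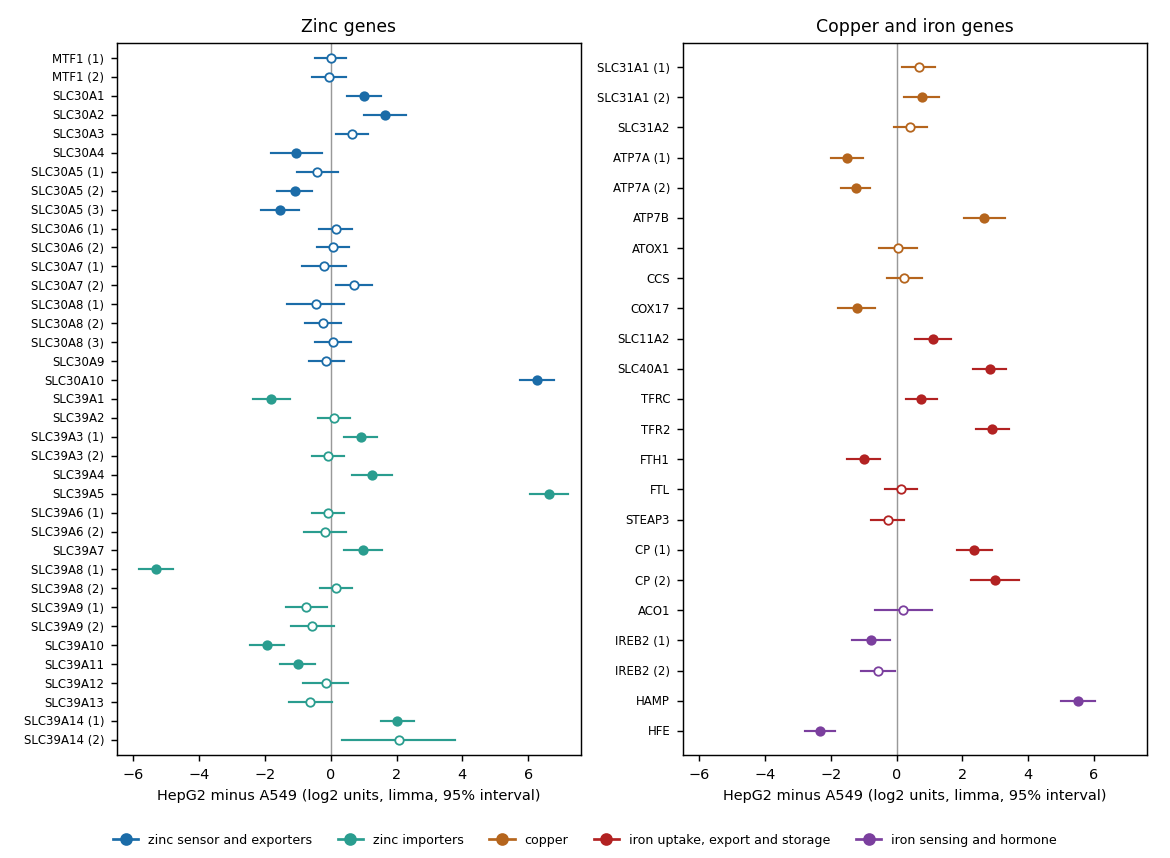
HepG2 minus A549 in log2 units by limma for each of the 60 member probes, with 95% intervals, zinc genes on the left and copper and iron genes on the right; filled points passed an adjusted p of 0.05. The extremes are SLC39A5 at 6.63 and the brighter SLC39A8 probe at -5.31, and 17 filled points lie to the right of 0 and 13 to the left.

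Of the genes of iron sensing and hormone, 1 of 4 was higher in HepG2 cells and 2 were lower. HAMP, which encodes hepcidin, had an intensity of 2013 with GSK343 and 2124 in control HepG2 cells, against 52.8 with GSK343 and 38.9 in control A549 cells. The line difference was 5.51 ± 0.21 log2 units (adjusted p = 3.05e-06). Among the genes of iron uptake, export and storage, TFR2, the transferrin receptor with which liver cells sense circulating iron, read 6841 with GSK343 and 6390 in control HepG2 cells, against 898 with GSK343 and 866 in control A549 cells, and was higher by 2.91 ± 0.21 log2 units (adjusted p = 5.65e-05). HFE, a partner of TFR2 in this sensing, ran the other way, with 178 with GSK343 and 167 in control HepG2 cells, against 828 with GSK343 and 909 in control A549 cells. Its HepG2 values were under the median, and it was lower by 2.33 ± 0.20 log2 units (adjusted p = 1.19e-04).

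SLC40A1, the only known cellular iron exporter, read 4912 with GSK343 and 4859 in control HepG2 cells, against 702 with GSK343 and 677 in control A549 cells. It was higher by 2.82 ± 0.21 log2 units (adjusted p = 6.19e-05). CP, which encodes ceruloplasmin, the copper-carrying plasma protein that oxidises iron as it leaves cells, was higher in HepG2 cells by both probes. Its brighter probe read 2004 with GSK343 and 1832 in control HepG2 cells, against 323 with GSK343 and 433 in control A549 cells, and the differences were 2.36 ± 0.23 and 2.98 ± 0.31 log2 units (adjusted p = 2.32e-04 and 3.48e-04). Both A549 values of each CP probe were under the median.

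The uptake and storage genes differed less. SLC11A2, the importer of ferrous iron, read 3771 with GSK343 and 3764 in control HepG2 cells, against 1483 with GSK343 and 2097 in control A549 cells, and was higher by 1.10 ± 0.23 log2 units (adjusted p = 0.0107). TFRC, the receptor that brings transferrin iron into most cells, read 55898 with GSK343 and 66632 in control HepG2 cells, against 35652 with GSK343 and 36887 in control A549 cells. It was higher by 0.75 ± 0.20 log2 units (adjusted p = 0.0271), a call that was lost when each array was centred on its median (adjusted p = 0.0618). The ferritin heavy chain gene FTH1 was lower, with 8636 with GSK343 and 7605 in control HepG2 cells, against 15781 with GSK343 and 16741 in control A549 cells (2.01-fold lower, SE 0.22 log2 units, adjusted p = 0.0116). One further probe names FTH1 together with its pseudogene FTH1P3 and was left out, and transcripts of the many ferritin pseudogenes may bind the FTH1 probe as well.

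The ferritin light chain gene FTL lay between 334261 and 479776 on all 4 arrays, and its line difference was 0.13 log2 units with a 95% interval of -0.35 to 0.61 (adjusted p = 0.672). Of the iron regulatory proteins, which bind iron-responsive elements in ferritin and TFRC transcripts, IREB2 was lower in HepG2 cells by its brighter probe, at 18120 with GSK343 and 15474 in control HepG2 cells, against 24683 with GSK343 and 33453 in control A549 cells. That difference of -0.78 ± 0.24 log2 units (adjusted p = 0.0463) was lost with median centring (adjusted p = 0.105), and the other IREB2 probe missed the threshold (-0.56 log2 units, adjusted p = 0.0876). ACO1, the other regulatory protein, and STEAP3, the ferrireductase of the endosome, did not pass the test.

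Further genes of the same pathways were also compared between the lines. Of 21 further iron genes, 20 had a probe of their own, and of their 27 probes 5 were higher and 7 lower in HepG2 cells (18.5% and 25.9%, where 15.2% and 17.4% of all probes were). TF, which encodes transferrin, read 139837 with GSK343 and 127852 in control HepG2 cells, against 58.7 with GSK343 and 40.8 in control A549 cells. TMPRSS6, a liver protease that lowers hepcidin expression, was higher in HepG2 cells by 3.66 ± 0.19 log2 units (adjusted p = 1.22e-05), and CYBRD1, a ferric reductase at the cell surface, was lower by 5.28 ± 0.20 (adjusted p = 2.63e-06). Of 7 further zinc and copper genes with 8 probes, 0 probes were higher (0%, all probes 15.2%). The 2 probes of XIAP were lower (25%, all probes 17.4%), and no excess is read from so few probes. In the control arrays, HepG2 minus A549 had a median of 8.84 log2 units over the liver marker genes and of -10.33 over those of the lung line, and the part of cell type in the members' differences was not tested.

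With GSK343, most members lay near their control values. In HepG2 cells, 57 of the 60 member probes differed from control by less than 1 log2 unit and 45 by less than the probe spread (75%, where 81% of all probes did). In A549 cells these counts were 59 and 41 (68.3%, where 76.3% of all probes lay within the spread). One member probe was at least 1 log2 unit higher in HepG2 cells, where 0.648% of all probes were, and 2 were at least 1 log2 unit lower, where 2.54% of all probes were. In A549 cells 1 member probe was at least 1 log2 unit higher, where 1.58% of all probes were, and 0 were lower, where 0.764% of all probes were. With 60 probes, counts of 0 to 2 give shares near these backgrounds, so they are no result about the members. Over both lines together, limma called 0 probes higher and 0 lower at an adjusted p of 0.05, members included (0% of all probes in each direction), with 1287 of all probes and 2 member probes at an unadjusted p under 0.05. Those 2 were probes of SLC30A2 and SLC30A8, and the smallest adjusted p of a member was 0.613.

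**Figure D3:**
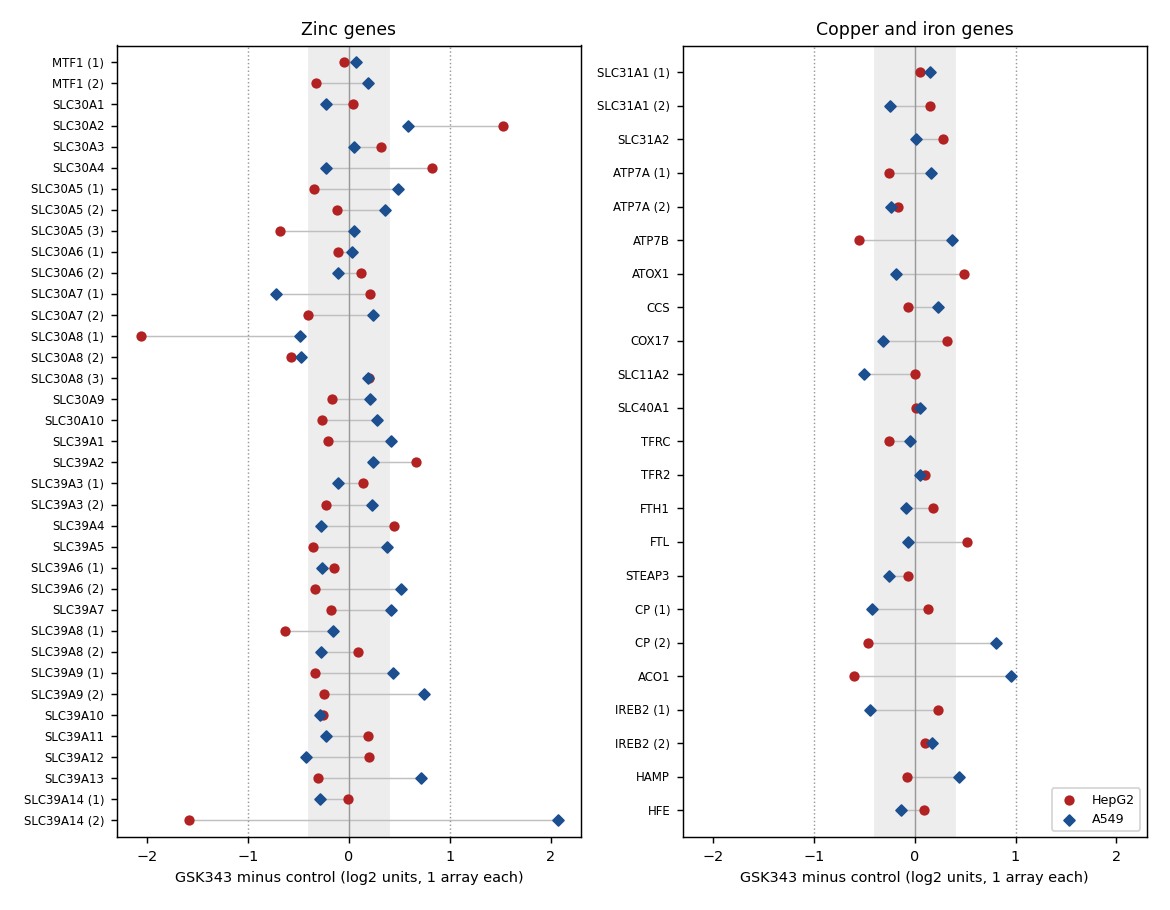
GSK343 minus control in log2 units for each member probe, with HepG2 as red circles and A549 as blue diamonds joined by a line; the grey band is the probe spread and dotted lines mark 1 log2 unit. SLC30A2 in HepG2 (1.53) and the dimmer SLC39A14 probe in A549 (2.07) lie beyond the right dotted line, and SLC30A8 (-2.06) and the same SLC39A14 probe (-1.59) in HepG2 lie beyond the left one.

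The 3 members past 1 log2 unit in either line all rest on a single probe. SLC30A2 read 329 with GSK343 and 114 in control HepG2 cells, and 75.3 with GSK343 and 50.3 in control A549 cells. It was thus 1.53 log2 units higher in HepG2 and 0.58 higher in A549, on values under the median of every array. For SLC39A14, only the dimmer of its 2 probes differed by this much. It read 939 with GSK343 and 2821 in control HepG2 cells, a difference of -1.59 log2 units, and 797 with GSK343 and 190 in control A549 cells, a difference of 2.07. The brighter SLC39A14 probe differed by -0.00 log2 units in HepG2 and by -0.28 in A549, so the gene's probes disagree by 1.58 and 2.35 log2 units in the HepG2 and A549 comparisons. SLC30A8, the zinc exporter of insulin granules, read 26.9 with GSK343 and 112 in control HepG2 cells by its brightest probe, a difference of -2.06 log2 units. Its other probes gave -0.57 and 0.20, all 3 probes were far under the median, and no level is read from them.

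MTF1 and its target SLC30A1 differed by less than the probe spread in both lines. The probes of MTF1 differed by -0.05 and -0.32 log2 units in HepG2 and by 0.07 and 0.19 in A549. Among pairs with both probes at or above the median in mean intensity, the probe spread in HepG2 was 0.27, and the MTF1 value of -0.32 lay past it. SLC30A1, which responds to MTF1, differed by 0.05 log2 units in HepG2 cells and by -0.23 in A549 cells. The 5 metallothionein genes looked at here, which are also MTF1 targets, differed more in HepG2 on the same arrays. MT1X read 134258 with GSK343 and 39038 in control HepG2 cells, against 22135 with GSK343 and 19504 in control A549 cells, and MT1B was 4.48 log2 units higher with GSK343 in HepG2. The 5 genes (MT1A, MT1B, MT1E, MT1X and MT2A) were higher with GSK343 in HepG2, by 0.81 to 4.48 log2 units. In A549 they lay between -0.31 and 0.41. They were chosen with earlier results known, and no other metallothionein gene was looked at.

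The bases before the transcription start of members on which these comparisons turn are given here from RefSeq (GRCh38.p14), 5′ to 3′ on the gene's strand, to show where metal response elements lie. Each line holds the 250 bases that precede the start. Capitals mark matches to the metal response element core TGCACNC or TGCGCNC, or to the antioxidant response element core TGACNNNGC or TGANTCAGC, read on both strands, so that a match on the opposite strand appears as its reverse complement. SLC30A1 lies at chr1:211579162-211579411 (minus strand), SLC30A2 at chr1:26046119-26046368 (minus strand), SLC39A5 (the second of 2 listed starts) at chr12:56230467-56230716 (plus strand) and SLC40A1 at chr2:189580787-189581036 (minus strand).
SLC30A1: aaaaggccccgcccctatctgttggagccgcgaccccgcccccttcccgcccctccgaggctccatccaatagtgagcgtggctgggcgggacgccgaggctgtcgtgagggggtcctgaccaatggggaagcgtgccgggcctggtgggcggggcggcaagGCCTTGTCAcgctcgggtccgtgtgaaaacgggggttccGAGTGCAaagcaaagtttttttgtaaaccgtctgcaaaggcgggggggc
SLC30A2: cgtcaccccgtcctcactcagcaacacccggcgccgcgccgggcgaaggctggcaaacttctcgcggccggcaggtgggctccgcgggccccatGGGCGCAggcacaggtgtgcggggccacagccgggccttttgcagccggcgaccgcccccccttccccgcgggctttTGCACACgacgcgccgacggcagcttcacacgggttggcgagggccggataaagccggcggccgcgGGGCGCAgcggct
SLC39A5: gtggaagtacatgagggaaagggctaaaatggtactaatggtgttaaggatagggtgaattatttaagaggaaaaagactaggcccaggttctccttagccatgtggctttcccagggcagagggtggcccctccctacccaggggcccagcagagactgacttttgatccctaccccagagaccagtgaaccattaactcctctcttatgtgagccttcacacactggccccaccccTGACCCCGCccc
SLC40A1: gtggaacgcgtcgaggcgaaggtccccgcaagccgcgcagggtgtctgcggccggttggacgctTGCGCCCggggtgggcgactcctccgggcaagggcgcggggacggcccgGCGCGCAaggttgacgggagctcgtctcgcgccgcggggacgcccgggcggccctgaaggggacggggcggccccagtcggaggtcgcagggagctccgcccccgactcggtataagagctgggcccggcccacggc

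Counted from the start, with the base before it as -1 and the first transcribed base as 1, the SLC30A1 promoter had metal response element cores that begin at -49 and, in the transcribed bases not shown, at 25, and an antioxidant core at -88. SLC30A2 had metal response element cores at -156, -79 and -13, SLC40A1 at -186 and -137, and SLC39A5 had one in the transcribed bases at 21 and an antioxidant core at -12. The other listed start of SLC39A5, which is not shown, had no match to either core. Promoter sequences matched 37 of the 44 members with 53 starts, and SLC30A8, SLC39A4, SLC39A14, SLC31A2, TFR2, FTH1 and CP had no entry used. From 250 bases before to 50 after the start, 22 of the 53 member promoters (41.5%) held the metal response element core, where 29.6% of all 35116 promoters did, and 14 of 53 (26.4%) held the antioxidant core, where 14.0% did. The 19 members with a metal response element core had a median GSK343 difference of -0.04 log2 units in HepG2 and 0.05 in A549, and the 18 without one had medians of -0.09 and 0.05. A match is a description of the letters and not of a site in use.

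HAMP, which had the largest fitted line difference of the 12 iron genes among the members, is shown in the same way at chr19:35282278-35282527 (plus strand). Capitals mark GGCGCC, the core through which bone morphogenetic protein signals are known to act on this gene, and a STAT-type palindrome, TTCNNNGAA, through which inflammatory signals act. These letters were chosen after the values were seen.
HAMP: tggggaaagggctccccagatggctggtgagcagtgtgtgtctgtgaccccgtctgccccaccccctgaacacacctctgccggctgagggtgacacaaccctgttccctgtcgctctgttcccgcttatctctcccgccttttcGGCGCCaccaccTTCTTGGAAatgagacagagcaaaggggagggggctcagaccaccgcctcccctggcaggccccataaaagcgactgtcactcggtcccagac

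The cores begin at -105 and -93 and do not overlap. GGCGCC was found in 19.2% and TTCNNNGAA in 7.66% of all promoters of this length. HAMP itself read 2013 with GSK343 and 2124 in control HepG2 cells, a difference of -0.08 log2 units, and 52.8 with GSK343 and 38.9 in control A549 cells, a difference of 0.44 on dim values.

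As a set, the 44 members had a median GSK343 difference of -0.07 log2 units in HepG2 (20 genes above 0 and 24 below), where the median of all genes was -0.02, and of 0.03 in A549 (23 above and 21 below), where it was 0.04. The members' medians thus lay within 0.05 log2 units of those of all genes in both lines. Of all genes, 46.7% were above 0 in HepG2 and 54.7% in A549. The zinc importers had a median of -0.22 in HepG2 (4 above 0 and 10 below) and of 0.18 in A549 (9 above and 5 below). With the brightest probe of each gene alone these medians were -0.16 and -0.13, so the opposite signs of the medians were not kept. Medians of the zinc sensor and exporters were -0.10 in HepG2 and 0.05 in A549, those of the copper genes 0.10 and -0.04, those of iron uptake, export and storage 0.01 and -0.06, and those of iron sensing and hormone 0.01 and 0.15. Median centring removes shifts of -0.07 log2 units in HepG2 and 0.12 in A549. After it, 23 members were above 0 and 21 below in HepG2 (52.3% above, all genes 57.9%). In A549, 18 were above and 26 below (40.9% above, all genes 38.8%). With quantile normalization the counts were 20 above and 24 below in HepG2, as deposited, and 21 above and 23 below in A549. The balance of signs thus changed with median centring in both lines and with quantile normalization in A549 alone.

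Members often differed in opposite directions in the lines. This held for 31 of the 44 genes (70.5%), 14 of them higher with GSK343 in HepG2 and lower in A549 and 17 the reverse, where it held for 58.3% of 18313 genes. It held for 11 of the 14 zinc importers. In 3 probes the differences of both lines were past the probe spread, and these were the dimmer SLC39A14 probe given above, ACO1, an iron regulatory protein, and the dimmer probe of CP. The share of all probes that meet this rule was not taken, so no excess is read from this count. ACO1 read 2704 with GSK343 and 4102 in control HepG2 cells (-0.60 log2 units), and 4040 with GSK343 and 2083 in control A549 cells (0.96). Its line difference thus had opposite signs, at -0.58 log2 units in the GSK343 arrays and 0.98 in the control arrays. The dimmer CP probe read 1283 with GSK343 and 1767 in control HepG2 cells (-0.46 log2 units), and 251 with GSK343 and 144 in control A549 cells (0.80), while the brighter one gave 0.13 and -0.42. Neither the sign of CP nor the size in either line was thus shared by its probes.

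By gene, 6 members were higher with GSK343 by more than the probe spread in HepG2 cells (SLC30A2, SLC30A4, SLC39A2, SLC39A4, ATOX1 and FTL), or 13.6%, where 5.28% of all genes were. In the same cells 4 were lower (SLC30A8, SLC39A14, ATP7B and ACO1), or 9.09%, where 10.5% of all genes were. These counts are a description with no test, and SLC30A2, SLC30A4 and SLC39A2 were dim on every array. FTL, whose probe is among the brightest 10%, read 479776 with GSK343 and 334261 in control HepG2 cells (0.52 log2 units), and 356958 with GSK343 and 374710 in control A549 cells (-0.07). ATOX1 read 13782 with GSK343 and 9838 in control HepG2 cells (0.49 log2 units), and 10630 with GSK343 and 12116 in control A549 cells (-0.19). ATP7B, given above, was 0.56 log2 units lower in HepG2 and 0.37 higher in A549. In A549 cells 8 were higher (SLC30A2, SLC39A1, SLC39A7, SLC39A9, SLC39A13, SLC39A14, ACO1 and HAMP), or 18.2%, where 12% of all genes were, and 2 were lower (SLC39A12 and SLC11A2), or 4.55%, where 7.57% were. Of these, SLC39A13 was 0.71 log2 units higher with GSK343 (1670 with GSK343 and 1021 in control cells) and SLC39A9 was higher by both probes, by 0.44 and 0.74, while SLC11A2 was 0.50 lower. SLC30A2, HAMP and SLC39A12 were dim on both A549 arrays, with SLC39A12 at 20.5 with GSK343 and 27.5 in control cells. Of the other genes of iron uptake, export and storage, SLC40A1 differed by 0.02 log2 units in HepG2 and 0.05 in A549, TFR2 by 0.10 and 0.05, TFRC by -0.25 and -0.05, STEAP3 by -0.07 and -0.26, and FTH1 by 0.18 and -0.09, all within the probe spread.

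**Figure D4:**
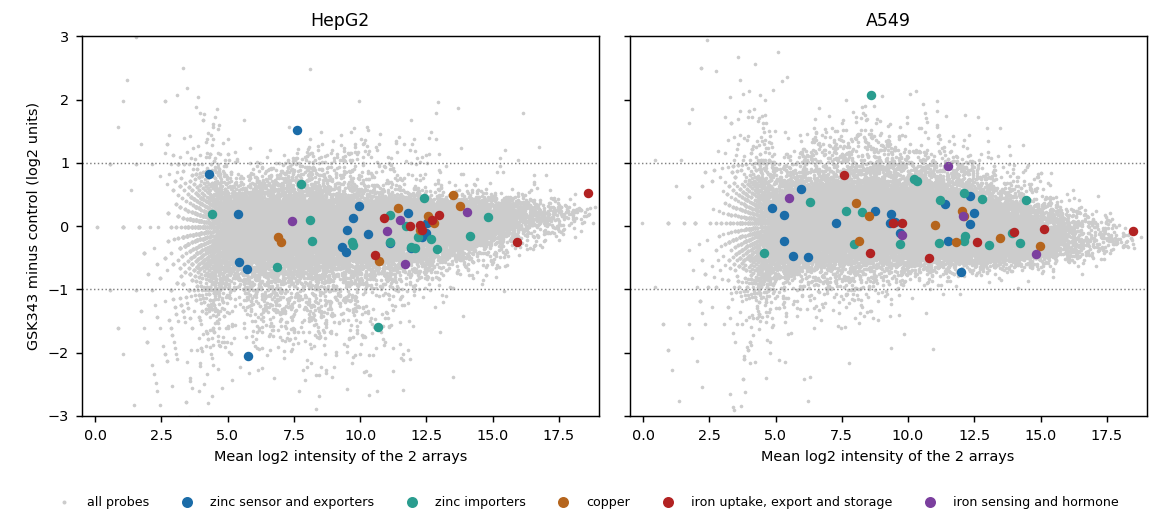
GSK343 minus control (log2 units) against the mean log2 intensity of the line's 2 arrays, HepG2 on the left and A549 on the right, with all probes in grey and member probes coloured by group; dotted lines mark 1 log2 unit. The vertical axis ends at 3 log2 units, which leaves out 39 probes in HepG2 and 18 in A549, none of them a member, and the grey cloud bends up at high intensity in HepG2 and down in A549.

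The sign of a difference also moved with brightness over the whole array. In the brightest 10% of probes the median difference was 0.08 log2 units in HepG2 (63.5% of probes above 0) and -0.12 in A549 (31.7% above 0), and between the 30th and the 40th percentile of intensity it was -0.04 in HepG2 and 0.13 in A549. The brightest 10% held 7 member probes in HepG2 and 9 in A549, among them those of FTL, ATOX1, COX17, TFRC and IREB2. COX17 differed by 0.32 log2 units in HepG2 and -0.31 in A549, and the bright IREB2 probe by 0.23 and -0.44, both in the direction of the brightest probes and larger than their median. Against the direction of the brightest probes went TFRC (-0.25) and the brighter SLC39A6 probe (-0.15) in HepG2, and SLC39A1 (0.42) in A549. The other member probes of the brightest 10% in each line went in that direction. The part of brightness in the members' opposite signs was not tested.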

How the data were processed

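Total RNA of HepG2 and A549 cells, with 10 μM GSK343 for 6 h or as control, was amplified, coupled to Cy5 and read on 1 Human OneArray Plus per condition. The authors deposited linear, processed intensity for each of 31741 probes; the background correction and normalization are not given in the sources used here and could not be repeated. Probes were named from GEO's platform annotation, in which 24740 name 1 gene, 977 several and 6024 none. Differences are log2 of GSK343 minus log2 of control without further scaling. Values of 0 or less (41 to 91 probes per array, no member) were left out, and a gene's value is the mean over its own probes. Counts are of probes at least 1 log2 unit apart. The probe spread is the SD of the difference between the probes of genes with 2 probes, divided by the square root of 2. limma 3.58.1 (R 4.3.3) was fitted to all 4 arrays with line and treatment, an intensity trend in the variance, and two-sided p-values were adjusted by Benjamini-Hochberg over all 31607 probes. The fit was tested on simulated data. Python 3.11.15, numpy 2.4.6, pandas 2.3.3 and matplotlib 3.10.9 were used. Precision is limited by there being 1 array per condition. Alternatives were median centring, quantile normalization, an offset of 50, brighter probes, the brightest probe per gene, a size of 0.58 log2 units, and for limma no trend, robust estimation, no covariate and the arrays of 1 treatment alone. The named genes are any members, with values on every array for those past 1 log2 unit with GSK343, those past the test between lines, and the main transport and control genes. The members and lists were chosen with earlier results of these data known.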

Additional observations from a re-analysis of the deposited data

Results flagged for a closer look

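For 3 probes of 3 members, GSK343 and control differed in opposite directions in the lines each time by more than the probe spread. How many of all probes meet this rule was not counted, so the 3 probes are no result about the members as a set. The dimmer SLC39A14 probe was at -1.59 log2 units in HepG2 and 2.07 in A549. ACO1 was at -0.60 in HepG2 and 0.96 in A549, and the dimmer CP probe was at -0.46 in HepG2 and 0.80 in A549. The difference between the lines was not tested, since each value is the difference of 2 single arrays. The brighter probes of SLC39A14 and CP did not share these values, at -0.00 and 0.13 log2 units in HepG2 and -0.28 and -0.42 in A549, and ACO1 has a single probe.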

How the results depend on the processing

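Of 120 counts and medians recomputed under the alternatives, 111 stayed within their limits and 9 moved. With a size of 0.58 log2 units, 3 member probes were higher and 5 lower with GSK343 in HepG2, and 6 were higher and 1 lower in A549. Among probes at or above the array median, 0 member probes were higher and 1 lower in HepG2. With the brightest probe per gene, 1 was lower in HepG2 and 0 were higher in A549. Among probes whose mean was at or above the median, a setting chosen after seeing the data, 3603 of 15804 probes (22.8%) were lower in HepG2 than in A549. Members called between the lines ranged over the alternatives from 17 to 19 probes higher and from 9 to 14 lower. The count of 9 came from the probes whose mean was at or above the median. That setting leaves out dim member probes, and none of those it kept lost its call. Calls were lost for SLC30A2 without the covariate (adjusted p = 0.0512), for SLC30A4 with quantile normalization (0.0870) or without the covariate (0.0533), for TFRC with median centring (0.0618) and for IREB2 with median centring (0.105) or no trend (0.0531). Calls were gained in some settings by probes that missed the threshold, namely SLC31A1 (the brighter probe, 5 settings), SLC30A7 (the dimmer probe, 4), SLC30A3 (3), SLC39A14 (the dimmer probe, 2), SLC39A9 (the brighter probe, 2) and IREB2 (the dimmer probe, 1). No member probe called between the lines changed direction. With GSK343, 12 of 60 recomputed medians changed sign. In A549 the zinc importers' median was 0.18 as deposited and -0.13 with the brightest probe per gene, that of the copper genes -0.04 and 0.16, and that of all members 0.03 and -0.02. For GSK343 over both lines, limma again called 0 probes without the covariate, without the trend and with robust estimation. In these settings 228 to 1323 probes had an unadjusted p under 0.05. The other alternatives were not run for that comparison. Opposite signs in the lines were found for 35 members (79.5%, all genes 59.9%) with median centring and for 23 of 31 (74.2%, all genes 64.9%) among brighter probes. With the brightest probe alone, SLC39A14 differed by -0.00 log2 units in HepG2 and by -0.28 in A549, where the mean of its probes was 0.89, and CP by -0.42 in A549, where the mean was 0.19. No paired analysis was possible because each condition has 1 array and the labels carry no replicate numbers.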
